A study of Mus musculus with 35 samples.

Results

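The interferon-stimulated antiviral genes described here are 39 genes of the lung's antiviral defence, listed by name for this role, with earlier results of these data known. Of these, 36 were measured among the 17097 genes of the array. Isg15, Bst2 and Ifi44 were not analysed here. The genes were followed in whole lung of adult male CD-1 mice, an outbred stock, in 7 groups of 5 mice. One group breathed air only, and the others breathed styrene at 1, 5, 10, 20, 40 or 120 ppm. The mice were killed on the morning after exposure. The labels disagree on the length of exposure: the protocol and sample titles give a single 6 hour exposure, whereas the sample characteristics and the title of the series give 5 days. Values are log2 RMA summaries of 1 probe set per gene, so a difference of 1 is 1 doubling of signal.

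Interferon-stimulated genes are switched on when type I or type III interferons bind their receptors. The receptors activate the kinases JAK1 and TYK2, and STAT2 and IRF9 are then part of the complex that binds interferon-stimulated response elements in promoters. The products sense viral RNA, block viral translation, degrade RNA or feed back on the pathway, and IRF7 amplifies the production of interferon itself. In the lung, airway epithelium and alveolar macrophages can mount this program after infection.

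The core of the interferon-stimulated response element was searched in RefSeq promoter windows of assembly GRCm38.p6, from 250 bases before to 50 bases after each gene's start. The motif was GAAA, any 2 bases and GAAA again, searched on both strands, so that on the other strand it reads TTTC, any 2 bases and TTTC. A window was found for 26 of the 36 measured genes, and 9 of these 26 (34.6%) held the motif, against 3.99% of 27025 genes with a window. Among members called higher at 120 ppm against air, 6 of 15 with a window held it. Of members called lower it was 1 of 8, and of those not called 2 of 3. These counts are small and were not tested, and the members had been listed as interferon-stimulated genes beforehand. The stretches shown are those of the 5 members with the largest change at 120 ppm among those that held the motif, to let a reader see the element. Some members with a larger change than Ifih1, such as Ifit2, Oasl2, Dtx3l and Cmpk2, had windows without the motif. The stretches read 5′ to 3′ on the strand of the gene, and capitals mark the motif.

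Ifit3 (chr19:34583343-34583446, + strand): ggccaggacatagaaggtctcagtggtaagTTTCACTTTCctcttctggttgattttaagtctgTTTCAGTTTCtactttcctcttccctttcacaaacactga
Ifit1 (chr19:34640755-34640843, + strand): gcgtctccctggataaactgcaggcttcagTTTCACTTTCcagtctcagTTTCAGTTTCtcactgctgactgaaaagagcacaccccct
Trim30a (chr7:104465194-104465259, - strand): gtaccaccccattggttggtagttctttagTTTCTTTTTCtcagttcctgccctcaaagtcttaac
Ddx58 (chr4:40239804-40239833, - strand): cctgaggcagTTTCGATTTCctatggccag
Ifih1 (chr2:62646206-62646233, - strand): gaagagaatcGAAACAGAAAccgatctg

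Ifit3 and Ifit1 each held 2 matches before the start. In Ifit3 the matches began 156 and 122 bases before it, and in Ifit1 104 and 85 bases before it. Trim30a held 1 match, which began 36 bases before the start. In Ddx58 and Ifih1 the match lay after the annotated start. A match describes the letters of a window and does not show that a factor binds there.

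The arrays of air and 1 ppm stood apart from those of 5 ppm and up. The interquartile range of the log2 values was 2.94 to 3.16 in air and 2.66 to 2.97 at 1 ppm, and the arrays from 5 to 120 ppm lay between 3.28 and 3.54. The first principal component held 67.3% of the variance between arrays. Array medians lay between 4.35 and 4.56. Lung epithelium markers (9 of 10 measured, among them Sftpc and Scgb1a1) had a mean log2 level of 12.2 to 12.6 in all 35 mice. Single markers among them were called in both directions from 5 ppm up, as given below. An array-wide difference between these sets and an effect of exposure cannot be told apart in any comparison of air or 1 ppm with a higher concentration. The share of all genes called is therefore given beside the counts of members.

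At 1 ppm, no member was called higher or lower than in air (limma, Benjamini-Hochberg over all genes, adjusted p under 0.05), while 2.46% of all genes were called. The median change of the 36 members was -0.07, against -0.04 for all genes. The smallest p was that of Stat2, a transducer of the interferon signal. Stat2 read 5.71, 6.14, 5.86, 6.00 and 6.18 in mice 1 to 5 in air, and 5.89, 5.44, 5.88, 5.42 and 5.55 at 1 ppm. The 3 lowest mice were all from the 1 ppm group, but the groups overlapped. The change was -0.34 ± 0.14 (SE, n = 5 per group; limma adjusted p = 0.207), and Stat2 was the 1 member with an unadjusted p under 0.05, where 15.6% of all genes had one. The next smallest p was that of Ifit3, whose product binds viral RNA with IFIT1. Ifit3 read 6.33, 5.97, 6.09, 6.55 and 7.14 in air and 5.82, 4.65, 6.06, 5.93 and 6.26 at 1 ppm. Mouse 2 at 1 ppm was lowest, and the groups overlapped. Its change was -0.67 ± 0.39 (SE, n = 5 per group; limma adjusted p = 0.427).

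From 5 ppm up, the members split. The IFIT genes, the PARP9-DTX3L group, Oasl2, the ISG15 enzymes and the sensor Ddx58 were higher than in air, whereas Irf7, Irf9, Dhx58, Oasl1, Adar, Ifi35 and Lgals3bp were lower. At 5 ppm, 20 members were higher and 10 lower (30 of 36, 83.3%), when 77% of all genes were called. Of the members 55.6% were higher, and of all genes 29.6% were higher and 47.4% lower. At 120 ppm, 19 members were higher and 9 lower (77.8%), against 68.9% of all genes, with 52.8% of members higher, and 29.8% of all genes higher and 39.1% lower. At 10 ppm the counts were 18 higher and 9 lower, with 66.4% of all genes called (29% higher and 37.4% lower). At 20 ppm they were 17 and 7, with 63.6% called (29.4% higher and 34.2% lower), and at 40 ppm 17 and 9, with 64.8% called (28.6% higher and 36.2% lower). The share of members called in either direction was therefore within 10 percentage points of all genes at every concentration from 5 ppm, and the larger gap was in the share called higher. All these comparisons share the same 5 air mice, so their counts are not separate evidence.

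The median change of the members was 0.65 at 5 ppm and 0.67 at 120 ppm, against -0.23 and -0.15 for all genes. At 10, 20 and 40 ppm it was 0.45, 0.41 and 0.41, against -0.14, -0.11 and -0.13. At 120 ppm, all 5 exposed mice lay above all 5 air mice for 13 members and below them for 5, when 24.4% of all genes lay above and 26.3% below. At 5 ppm the counts were 17 and 6, when 25.1% of all genes lay above and 32.7% below. An F test over all groups called 30 of the 36 members and 82.4% of all genes. With the interquartile range as a covariate, 7 members stayed higher at 120 ppm (Ddx58, Ifit1, Oasl2, Trim25, Parp9, Rtp4 and Sp100) and 2 lower (Oasl1 and Ifi35), when 13% of all genes were higher and 16.5% lower. With the largest axis of within-group spread as a covariate, 4 of the 36 were higher, a share no larger than that of all genes (12.6%). With that axis 2 were lower (11.7% of all genes), namely Ifih1 and Samd9l, which the fit without it called higher. The calls of Irf7, Irf9, Dhx58, Isg20, Adar, Lgals3bp and Oas3 as lower at 120 ppm were lost under both covariates. At 5 ppm, 10 members were higher and 3 lower with the interquartile range (13.6% and 20.6% of all genes), and with the axis Oasl2 alone was higher and none lower (6.57% and 9.67%). That axis carried 18.8% of the within-group spread. Air and exposed arrays shared no range of either covariate, so those fits extrapolate. In whole tissue, fewer cells of a type and less RNA per cell cannot be told apart.

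**Figure D1:**
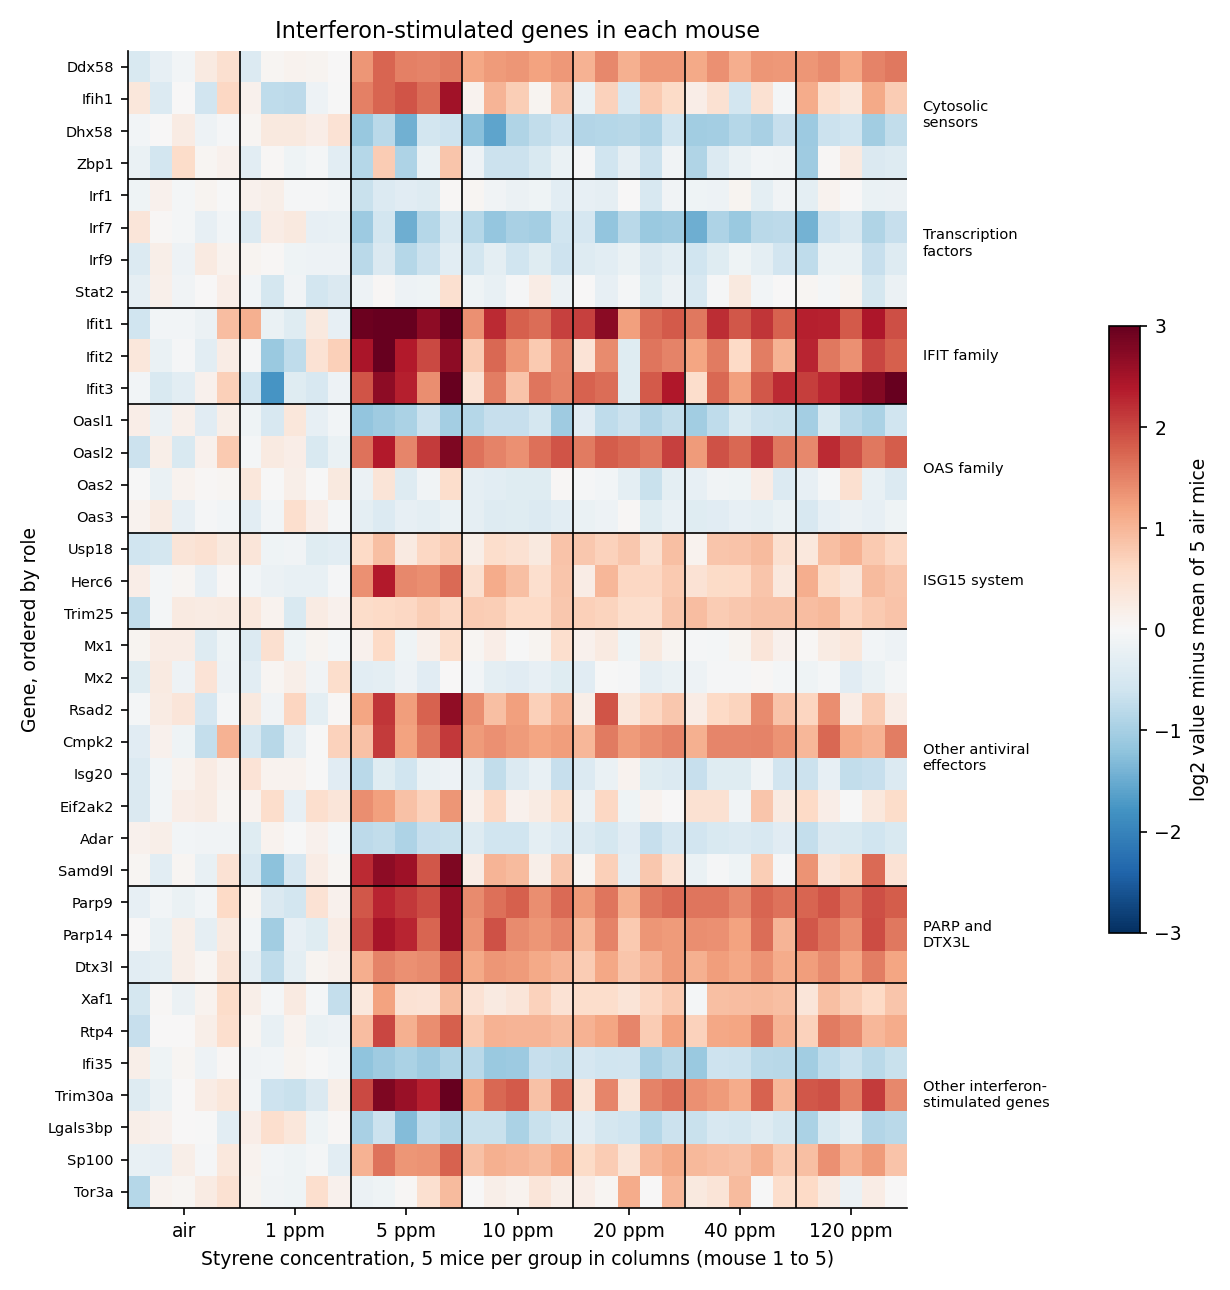
Log2 value of each of the 36 members minus its mean in the 5 air mice (colour, blue lower and red higher), with 1 column per mouse and members ordered by role. Most cells of the air and 1 ppm columns are pale, and from 5 ppm the IFIT, PARP and DTX3L genes are red while Irf7, Dhx58, Oasl1 and Ifi35 are blue.

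**Figure D2:**
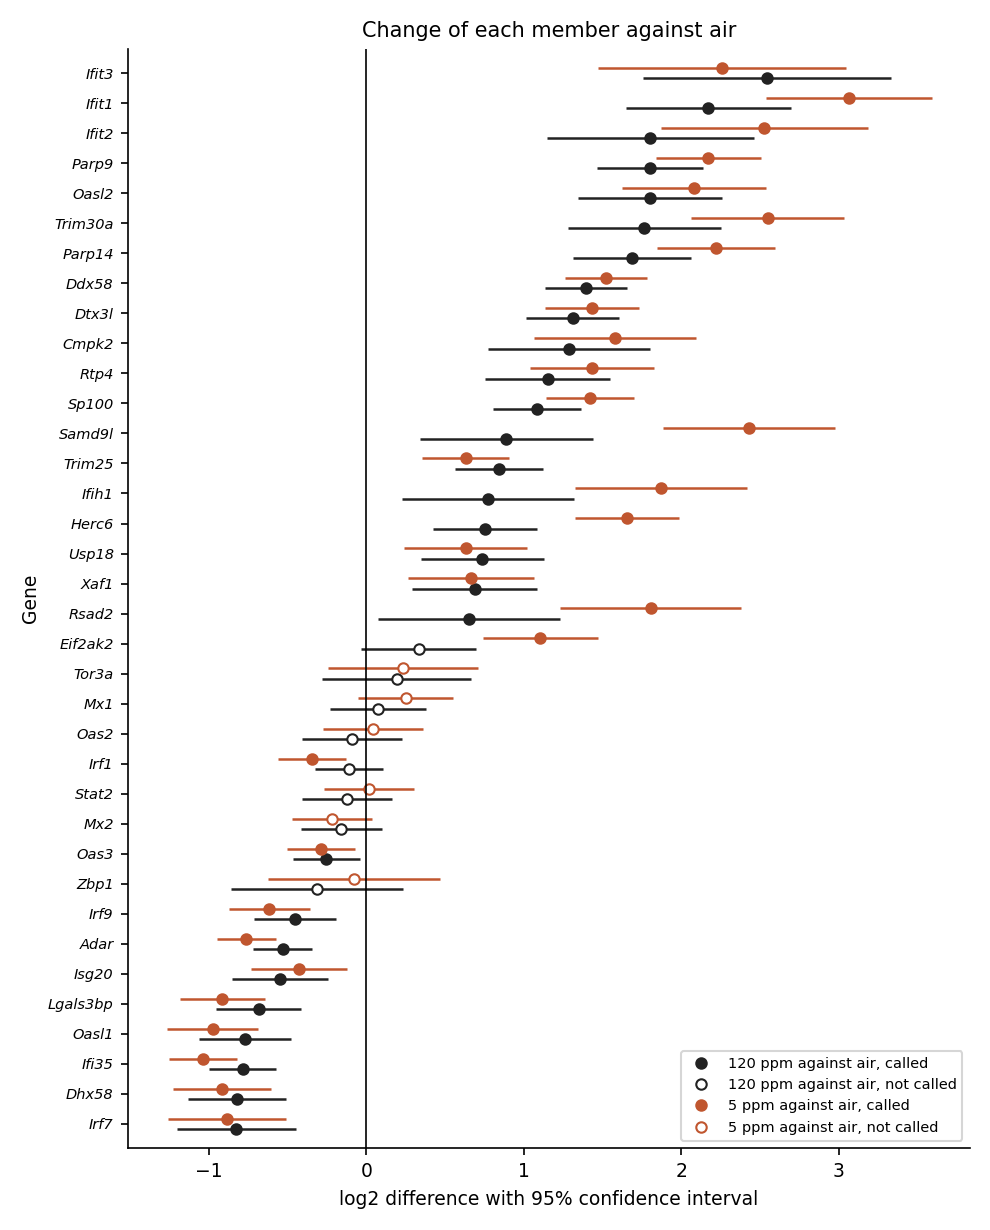
Log2 difference from air with its 95% confidence interval at 120 ppm (black) and 5 ppm (orange), 5 mice per group, with filled points for members called at an adjusted p under 0.05. Ifit3 leads at 120 ppm and Ifit1 at 5 ppm, and Irf7 is the lowest member at 120 ppm.

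The IFIT family, whose proteins bind viral RNA and block its translation, had the largest median change of the role groups at 5, 20, 40 and 120 ppm, and the PARP9-DTX3L group (1.49) at 10 ppm. Against air, all 3 measured members were higher in every comparison from 5 ppm, and the family's median changes at 5, 10, 20, 40 and 120 ppm were 2.53, 1.21, 1.47, 1.52 and 2.17. Ifit3 read 8.50, 8.68, 8.99, 9.16 and 9.46 at 120 ppm, all above the highest air mouse at 7.14. Its change was 2.54 ± 0.39 (SE, n = 5 per group; limma adjusted p = 6.55e-07), a 5.83-fold difference. At 5 ppm Ifit3 read 8.31, 9.11, 8.74, 7.82 and 9.40, at 10 ppm 6.86, 7.95, 7.28, 8.02 and 7.91, at 20 ppm 8.18, 8.10, 6.05, 8.25 and 8.83, and at 40 ppm 6.95, 8.13, 7.65, 8.29 and 8.66. The 10, 20 and 40 ppm groups each held at least 1 mouse within the air range, and the 5 and 120 ppm groups held none.

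Ifit1, which recognises RNA that lacks the cap of host messengers, read 3.99, 4.52, 4.53, 4.43 and 5.54 in air. It read 6.93, 6.91, 6.45, 7.03 and 6.54 at 120 ppm, and 7.54, 8.04, 7.69, 7.28 and 7.79 at 5 ppm. Every mouse at 5 and 120 ppm was above every air mouse, and the change was 2.17 ± 0.26 at 120 ppm (SE, n = 5 per group; limma adjusted p = 6e-09) and 3.06 ± 0.26 at 5 ppm (adjusted p = 1.87e-12). The 5 ppm change was the largest of any member in any comparison with air, at 8.36-fold. Ifit2, the family member linked to cell death, read 5.26, 4.71, 4.88, 4.60 and 5.14 in air. It read 7.20, 6.51, 6.29, 6.91 and 6.70 at 120 ppm, and 7.37, 8.07, 7.29, 6.89 and 7.60 at 5 ppm. Neither exposed group overlapped air. The change was 1.80 ± 0.32 at 120 ppm (limma adjusted p = 9.64e-06) and 2.53 ± 0.32 at 5 ppm (adjusted p = 1.79e-08). Ifit2 turned in sign once the array axis was added to the fit, to -0.44 at 120 ppm and -0.53 at 5 ppm, neither of them called, and Ifit3 at 5 ppm was -0.07.

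**Figure D3:**
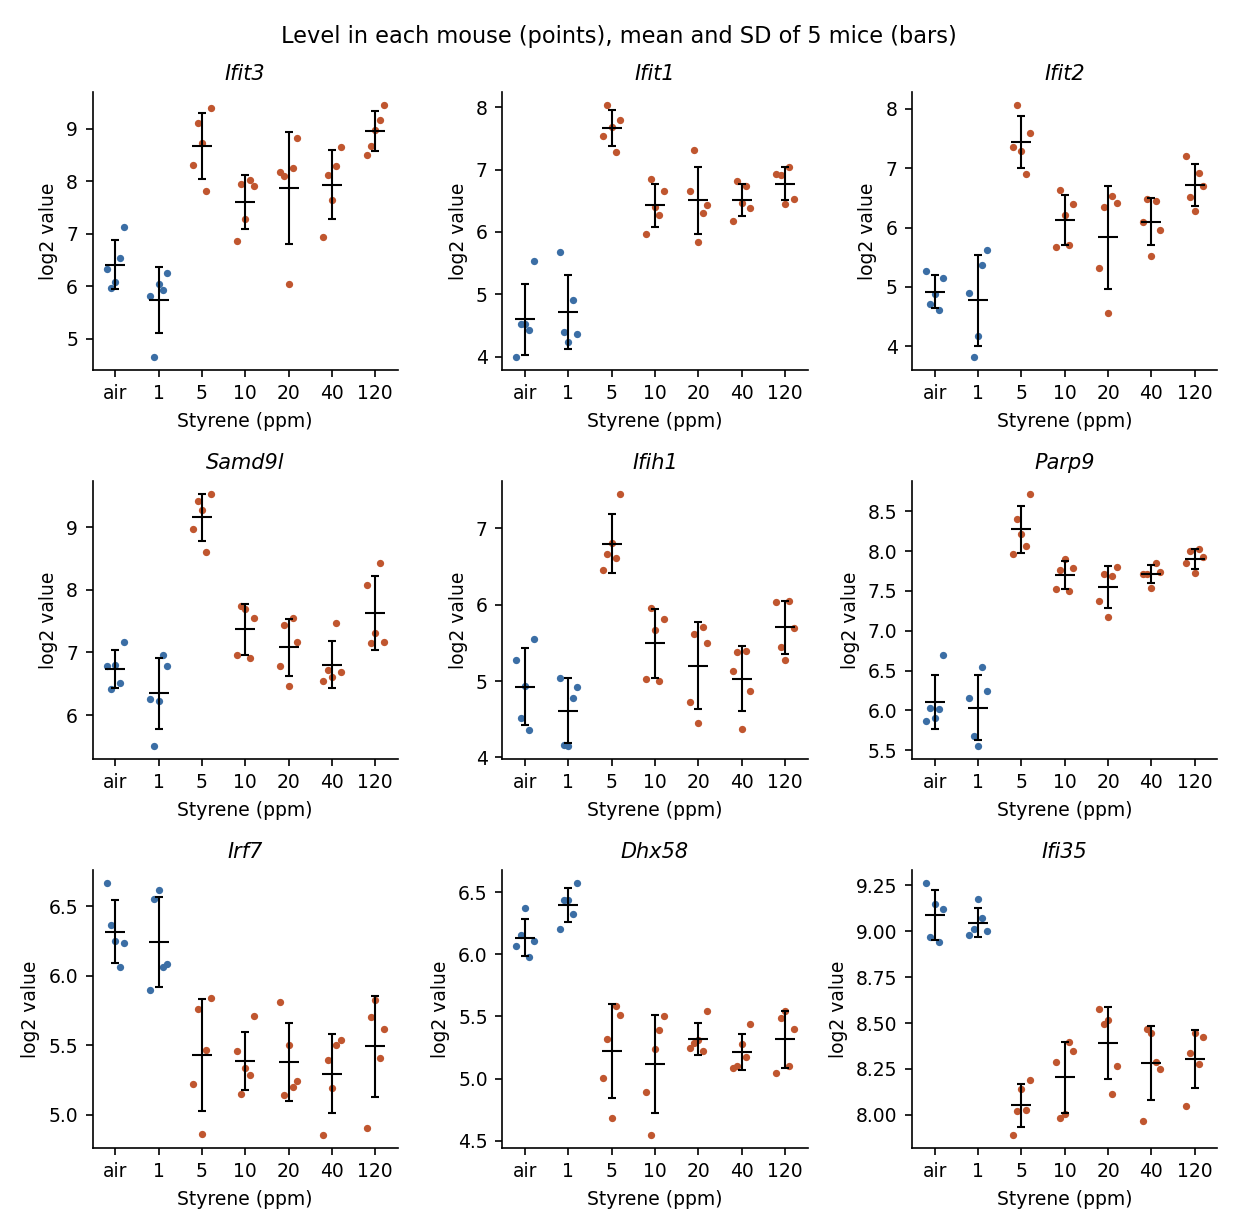
Log2 level in each mouse (points, blue for air and 1 ppm and orange from 5 ppm up) with mean and SD of 5 mice (black bars) for 9 members; the log2 axes differ between panels. Samd9l and Ifih1 peak at 5 ppm, Ifit3 has its highest mean at 120 ppm, and Irf7, Dhx58 and Ifi35 drop from 5 ppm on.

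PARP9, PARP14 and DTX3L add or read ADP-ribose marks, and PARP9 and DTX3L act as a pair in interferon signalling. All 3 genes were higher from 5 ppm up, with a median change of 2.17 at 5 ppm and 1.69 at 120 ppm. Parp9 read 5.86, 6.03, 5.90, 6.01 and 6.70 in air, and 7.85, 7.9965, 7.72, 8.03 and 7.92 at 120 ppm. The lowest 120 ppm mouse was about 1 log2 unit above the highest air mouse. The change was 1.80 ± 0.16 (SE, n = 5 per group; limma adjusted p = 2.31e-11), against 1.59, 1.45 and 1.61 at 10, 20 and 40 ppm. At 5 ppm Parp9 read 7.97, 8.40, 8.21, 8.06 and 8.72, and the change was 2.17 ± 0.16. Parp14 changed by 2.22 ± 0.18 at 5 ppm and 1.69 ± 0.18 at 120 ppm, and Dtx3l by 1.43 ± 0.15 and 1.31 ± 0.15. In all of these the exposed mice lay above all air mice.

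The cytosolic sensors of viral nucleic acid moved in different directions. Ddx58, which encodes the RNA sensor RIG-I, read 5.59, 5.80, 5.96, 6.32 and 6.53 in air and 7.37, 7.45, 7.20, 7.53 and 7.61 at 120 ppm. The groups did not overlap, and the change was 1.39 ± 0.13 (SE, n = 5 per group; limma adjusted p = 2.62e-11). Its changes at 5, 10, 20 and 40 ppm were 1.52, 1.25, 1.24 and 1.24. Ddx58, Oasl2, Parp9 and Rtp4 were the 4 members called higher at 120 ppm under both covariates. Dhx58 encodes LGP2, the RIG-I-like receptor that lacks the signalling domain. It read 6.06, 6.15, 6.37, 5.98 and 6.11 in air and 5.05, 5.49, 5.55, 5.10 and 5.40 at 120 ppm. All 5 exposed mice were below all air mice, and Dhx58 changed by -0.82 ± 0.15 (limma adjusted p = 1.66e-05). At 5 ppm its change was -0.91 ± 0.15, again without overlap.

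Ifih1, which encodes MDA5, the sensor of long double-stranded RNA, read 5.28, 4.51, 4.94, 4.36 and 5.55 in air. It read 6.45, 6.67, 6.81, 6.61 and 7.45 at 5 ppm and 6.03, 5.44, 5.28, 6.05 and 5.70 at 120 ppm. The 5 ppm mice were all above air, whereas the 120 ppm mice overlapped it. The change was 1.87 ± 0.27 at 5 ppm (limma adjusted p = 1.67e-07) and 0.77 ± 0.27 at 120 ppm (adjusted p = 0.0114). At 10, 20 and 40 ppm it was 0.56, 0.27 and 0.10, none of them called. With covariates Ifih1 turned at 120 ppm, to -0.44 with the interquartile range and to -1.10 with the array axis, the latter called lower (limma adjusted p = 0.0127). After quantile normalization its value at 120 ppm was 0.52 and not called (adjusted p = 0.1003). Zbp1, the sensor of Z-form nucleic acid that can start necroptosis, was not called at any concentration, and its changes ran from -0.42 at 10 ppm to -0.08 at 5 ppm. After quantile normalization Zbp1 was called lower at 120 ppm (-0.60, limma adjusted p = 0.0471).

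No gene of the transcription factors that carry the interferon signal was called higher in any comparison with air. Irf7, the amplifier of type I interferon production, read 6.67, 6.36, 6.25, 6.06 and 6.24 in air. It read 4.90, 5.70, 5.83, 5.41 and 5.62 at 120 ppm, and 5.22, 5.76, 4.86, 5.47 and 5.84 at 5 ppm. All exposed mice of both groups lay below all air mice. The change was -0.82 ± 0.18 at 120 ppm (SE, n = 5 per group; limma adjusted p = 0.000206), the lowest of any member, with Dhx58 next, and -0.89 ± 0.18 at 5 ppm (adjusted p = 6.81e-05). At 120 ppm Irf7 was -0.21 with the interquartile range as a covariate (limma adjusted p = 0.688) and -0.09 with the array axis (adjusted p = 0.884). Dhx58 was -0.74 (limma adjusted p = 0.0508) and -0.58 (adjusted p = 0.147).

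Irf9, the DNA-binding part of the interferon complex, read 7.91, 8.48, 8.15, 8.58 and 8.41 in air and 7.54, 8.11, 8.10, 7.61 and 7.92 at 120 ppm. The groups overlapped through air mouse 1, and Irf9 changed by -0.45 ± 0.13 (limma adjusted p = 0.00214). At 5 ppm it read 7.49, 7.88, 7.44, 7.67 and 7.98, a change of -0.62 ± 0.13. Stat2 read 6.03, 5.93, 6.07, 5.44 and 5.81 at 120 ppm and 5.82, 6.02, 5.82, 5.86 and 6.45 at 5 ppm. Both groups overlapped air. Its change was -0.12 ± 0.14 at 120 ppm (limma adjusted p = 0.435; 95% confidence interval -0.41 to 0.16) and 0.02 ± 0.14 at 5 ppm. After quantile normalization Stat2 was called lower at both, with -0.44 at 120 ppm (limma adjusted p = 0.00758) and -0.34 at 5 ppm (adjusted p = 0.0344). Irf1, induced by interferon gamma and by inflammation, was called lower at 5 ppm alone, with a change of -0.35 ± 0.11, and its value at 120 ppm was -0.11 ± 0.11.

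The OAS family makes or mimics the enzymes that activate RNase L in response to double-stranded RNA. Oasl2 and Oasl1, whose genes are neighbours in RefSeq with no protein-coding gene between them, moved in opposite directions. Oasl2 read 3.92, 4.73, 4.11, 4.70 and 5.36 in air and 6.02, 6.81, 6.47, 6.14 and 6.38 at 120 ppm. All exposed mice were above air, and the change was 1.80 ± 0.23 (SE, n = 5 per group; limma adjusted p = 1.75e-08). Oasl1 read 5.31, 4.93, 5.25, 4.76 and 5.27 in air and 4.08, 4.65, 4.30, 4.15 and 4.50 at 120 ppm, all below air, a change of -0.77 ± 0.14 (adjusted p = 1.77e-05). At 5 ppm the changes were 2.08 ± 0.23 for Oasl2 and -0.98 ± 0.14 for Oasl1. Oas3 was called lower at 120 ppm (-0.25 ± 0.11, limma adjusted p = 0.0346) and at 5 ppm (-0.29 ± 0.11, adjusted p = 0.0146). Its call at 120 ppm was lost without air mouse 1 (adjusted p = 0.0784), air mouse 2 (0.116) or 120 ppm mouse 1 (0.116), and its call at 5 ppm without air mouse 2 (0.0574). Quantile normalization ended both calls (limma adjusted p = 0.352 at 120 ppm and 0.325 at 5 ppm), and array weights (0.0841) and a fit of the compared groups alone (0.0697) ended that at 120 ppm. Oas2 was not called at any concentration, and its change at 120 ppm was -0.09 ± 0.16.

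**Figure D4:**
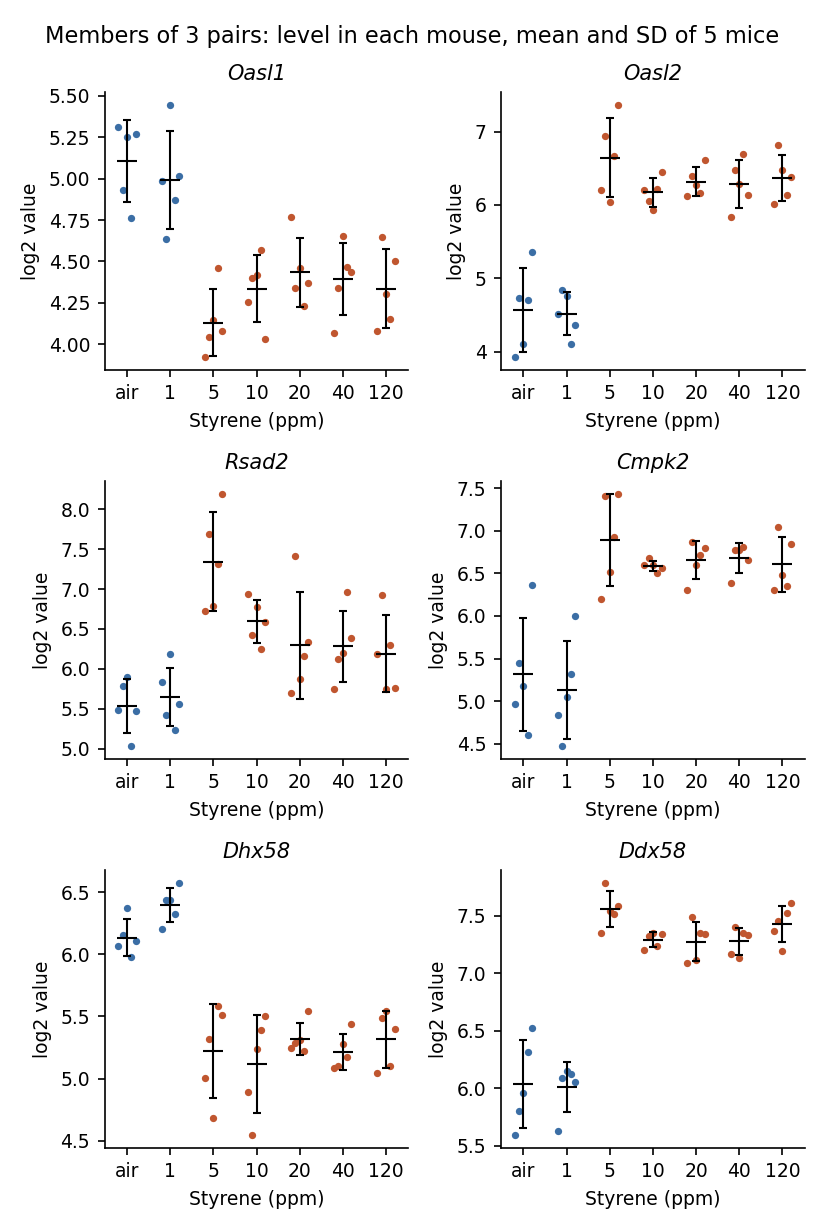
Log2 level in each mouse (points, blue for air and 1 ppm and orange from 5 ppm up) with mean and SD of 5 mice (black bars) for the neighbours Oasl1 and Oasl2, the neighbours Rsad2 and Cmpk2, and the related sensors Dhx58 and Ddx58; the log2 axes differ between panels. Oasl1 and Dhx58 are lower and Oasl2 and Ddx58 higher from 5 ppm, and Rsad2 has its highest mean at 5 ppm.

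Of the other neighbouring pairs, 4 were called higher in both genes. Parp14 and Dtx3l, Dtx3l and Parp9, Ifit2 and Ifit3, and Rsad2 and Cmpk2 were such pairs, and each of these genes was called higher at 120 ppm, as were 52.8% of all members. No test of joint movement was run. Oas2 and Oas3 were neighbours too, and only Oas3 of them was called. These were the 6 neighbouring pairs among the 34 members found in the gene table.

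The enzymes that attach or remove the ubiquitin-like protein ISG15 were higher. Usp18, which removes ISG15 and dampens signalling at the interferon receptor, changed by 0.74 ± 0.19 at 120 ppm and 0.63 ± 0.19 at 5 ppm, where quantile normalization ended the call (0.38, limma adjusted p = 0.0792). Herc6, the mouse ligase that attaches ISG15, changed by 0.76 ± 0.16 and 1.65 ± 0.16. Trim25, a ubiquitin ligase that acts on RIG-I, changed by 0.84 ± 0.14 and 0.63 ± 0.14. Air mouse 1 had the lowest Usp18 (5.79) and Trim25 (7.63) of its group.

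The remaining effectors were mixed, with 3 of 8 higher and 2 lower at 120 ppm and 4 higher and 2 lower at 5 ppm. Cmpk2, a mitochondrial nucleotide kinase, changed by 1.29 ± 0.25 at 120 ppm and 1.58 ± 0.25 at 5 ppm. Rsad2, which encodes the antiviral enzyme viperin, read 5.49, 5.79, 5.90, 5.03 and 5.47 in air. It read 6.73, 7.68, 6.79, 7.31 and 8.19 at 5 ppm and 6.19, 6.93, 5.75, 6.30 and 5.76 at 120 ppm. The 5 ppm mice did not overlap air, whereas 2 of the 120 ppm mice lay within the air range. Its change was 1.81 ± 0.28 at 5 ppm (SE, n = 5 per group; limma adjusted p = 8.72e-07) and 0.65 ± 0.28 at 120 ppm (adjusted p = 0.0409). The 120 ppm call was lost without any 1 of 6 mice: air mouse 1 (adjusted p = 0.0654), 4 (0.117) or 5 (0.063), or 120 ppm mouse 1 (0.0599), 2 (0.15) or 4 (0.0714). It was also lost after quantile normalization (limma adjusted p = 0.337), after median centring (0.0544) and with array weights (0.0671).

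Isg20, an RNA exonuclease, read 9.50, 9.83, 10.01, 10.16 and 10.01 in air and 9.25, 9.66, 9.16, 9.20 and 9.50 at 120 ppm. The groups overlapped through air mouse 1, and Isg20 changed by -0.55 ± 0.15 (SE, n = 5 per group; limma adjusted p = 0.00171). Adar, which edits adenosine in double-stranded RNA, read 7.85, 7.91, 7.64, 7.61 and 7.61 in air and 7.01, 7.29, 7.26, 7.13 and 7.28 at 120 ppm. The exposed mice lay below all air mice, and Adar changed by -0.53 ± 0.09 (adjusted p = 5.82e-06). Eif2ak2, which encodes the kinase PKR that halts translation, was called higher at 5 ppm (1.10 ± 0.18) and not at 120 ppm (0.33 ± 0.18, limma adjusted p = 0.0966; 0.0497 without 120 ppm mouse 3). The GTPases Mx1 and Mx2, classical blockers of influenza and related viruses, were not called in any comparison with air. At 120 ppm the Mx1 value was 0.07 ± 0.15 and the Mx2 value -0.16 ± 0.13. At 5 ppm Mx1 (0.25 ± 0.15) passed the test without 5 ppm mouse 3 (limma adjusted p = 0.0428), and Mx2 (-0.22 ± 0.13) without air mouse 1 (adjusted p = 0.0265). With all mice, quantile normalization called Mx1 higher (0.39, limma adjusted p = 0.0153) and Mx2 lower (-0.41, adjusted p = 0.0144) at 5 ppm. Mx2 was also called lower there after median centring (limma adjusted p = 0.0232) and with array weights (adjusted p = 0.0459).

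Among the other interferon-stimulated genes, Trim30a, Rtp4, Sp100 and Xaf1 were higher and Ifi35 and Lgals3bp lower at both 5 and 120 ppm. Trim30a, a feedback regulator of Toll-like receptor signalling, changed by 2.55 ± 0.24 at 5 ppm and 1.77 ± 0.24 at 120 ppm. Sp100, a protein of nuclear bodies, changed by 1.42 ± 0.14 and 1.08 ± 0.14, and Rtp4, a chaperone of G protein-coupled receptors, by 1.43 ± 0.19 and 1.15 ± 0.19. Ifi35, a leucine zipper protein that partners NMI, read 9.27, 8.97, 9.15, 8.94 and 9.12 in air and 8.05, 8.34, 8.44, 8.27 and 8.42 at 120 ppm. No exposed mouse reached the air range, and Ifi35 changed by -0.78 ± 0.10 (SE, n = 5 per group; limma adjusted p = 6.24e-08). At 5 ppm its change of -1.04 ± 0.10 was the lowest of any member in that comparison. Tor3a was not called against air at 5 or 120 ppm.

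Among mice exposed to 5 ppm or more, the 5 ppm group stood apart. Its mean was the highest of the 7 groups for 18 of the 36 members and the lowest for 6. The same shares over all genes were not taken. Against the mean of the 10, 20 and 40 ppm groups, 14 members were higher at 5 ppm and 3 lower, when 13.5% of all genes were higher and 28.8% lower (42.3% in all). Members higher made up 38.9%. This comparison does not use the air mice, but the 5 ppm arrays stood apart in it too. On the first principal component they lay between -0.221 and -0.160, and those of 10, 20 and 40 ppm between -0.127 and 0.031. An array-wide difference and an effect of exposure cannot be told apart in this comparison either. The median change was 0.26 for the members and -0.12 for all genes. With the array axis as a covariate, 2 members stayed higher (2.08% of all genes) and none lower (2.89% of all genes): Samd9l (1.13, limma adjusted p = 0.00198) and Herc6 (0.65, adjusted p = 0.0227). The 5 ppm arrays lay outside the range of the 10, 20 and 40 ppm arrays on that axis, so the fit extrapolates. Adjusting for the interquartile range instead left 11 members higher and 1, Adar, lower, when 10.5% of all genes were higher and 23.8% lower. Ddx58, Ifit3 and Dtx3l were then no longer called higher, nor Ifi35 and Lgals3bp lower. The interquartile ranges of these groups overlapped, at 3.41 to 3.54 for 5 ppm and 3.28 to 3.46 for 10, 20 and 40 ppm.

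Samd9l, which restricts poxviruses and halts translation, differed most. At 5 ppm it read 8.98, 9.43, 9.29, 8.61 and 9.53. It read 6.95, 7.75, 7.70, 6.92 and 7.55 at 10 ppm, 6.78, 7.45, 6.47, 7.55 and 7.16 at 20 ppm, and 6.54, 6.71, 6.61, 7.48 and 6.70 at 40 ppm. The lowest 5 ppm mouse was above the highest of the other 15 mice at 7.75. The change was 2.08 ± 0.22 (SE; limma adjusted p = 2.59e-08), or 4.23-fold. Against air, where Samd9l read 6.79, 6.42, 6.80, 6.50 and 7.18, the 5 ppm change was 2.43 ± 0.27, the 10 ppm change 0.64, the 20 ppm change 0.35 and the 40 ppm change 0.07. Ifih1 differed by 1.56 ± 0.22 (limma adjusted p = 1.53e-06). Its 15 mice at 10, 20 and 40 ppm lay between 4.37 and 5.95, below the lowest 5 ppm mouse at 6.45.

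The lowest differences were those of Lgals3bp and Adar. Lgals3bp, a secreted galectin ligand, read 8.76, 9.08, 8.43, 8.98 and 8.83 at 5 ppm, against a range of 8.77 to 9.41 and a median of 9.14 over the 15 mice at 10, 20 and 40 ppm. The groups overlapped, and Lgals3bp differed by -0.31 ± 0.11 (SE; limma adjusted p = 0.0187, and 0.128 without 5 ppm mouse 3). Adar read 6.93, 6.98, 6.81, 7.04 and 7.05 at 5 ppm, against 7.03 to 7.44 and a median of 7.28 at 10, 20 and 40 ppm, and differed by -0.30 ± 0.08 (adjusted p = 0.00177). The 5 ppm mice lay above all 15 mice of the middle groups for 6 members, namely Ifih1, Ifit2, Herc6, Samd9l, Parp9 and Trim30a. For none did they lie below them all. Of all genes, 6.71% lay above and 6.89% below. Without 5 ppm mouse 5, the count called lower rose from 3 to 5. The weakest calls of this comparison rested on single mice: without 5 ppm mouse 2, Ifit3 (limma adjusted p = 0.0854), Ddx58 (0.132), Dtx3l (0.085) and Ifi35 (0.0519) no longer passed, and without mouse 5 Ifit3 (0.114), Ddx58 (0.0664) and Dtx3l (0.191) did not. Ifit3 and Ddx58 also lost the call without 5 ppm mouse 3 (0.0541 and 0.0563) and Ifi35 without mouse 1 (0.0872). Dtx3l lost it without any 1 of 9 mice, namely 5 ppm mice 2 to 5, 10 ppm mouse 5, 20 ppm mouse 1 or 3, and 40 ppm mouse 1 or 5, with adjusted p from 0.0506 to 0.191.

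**Figure D5:**
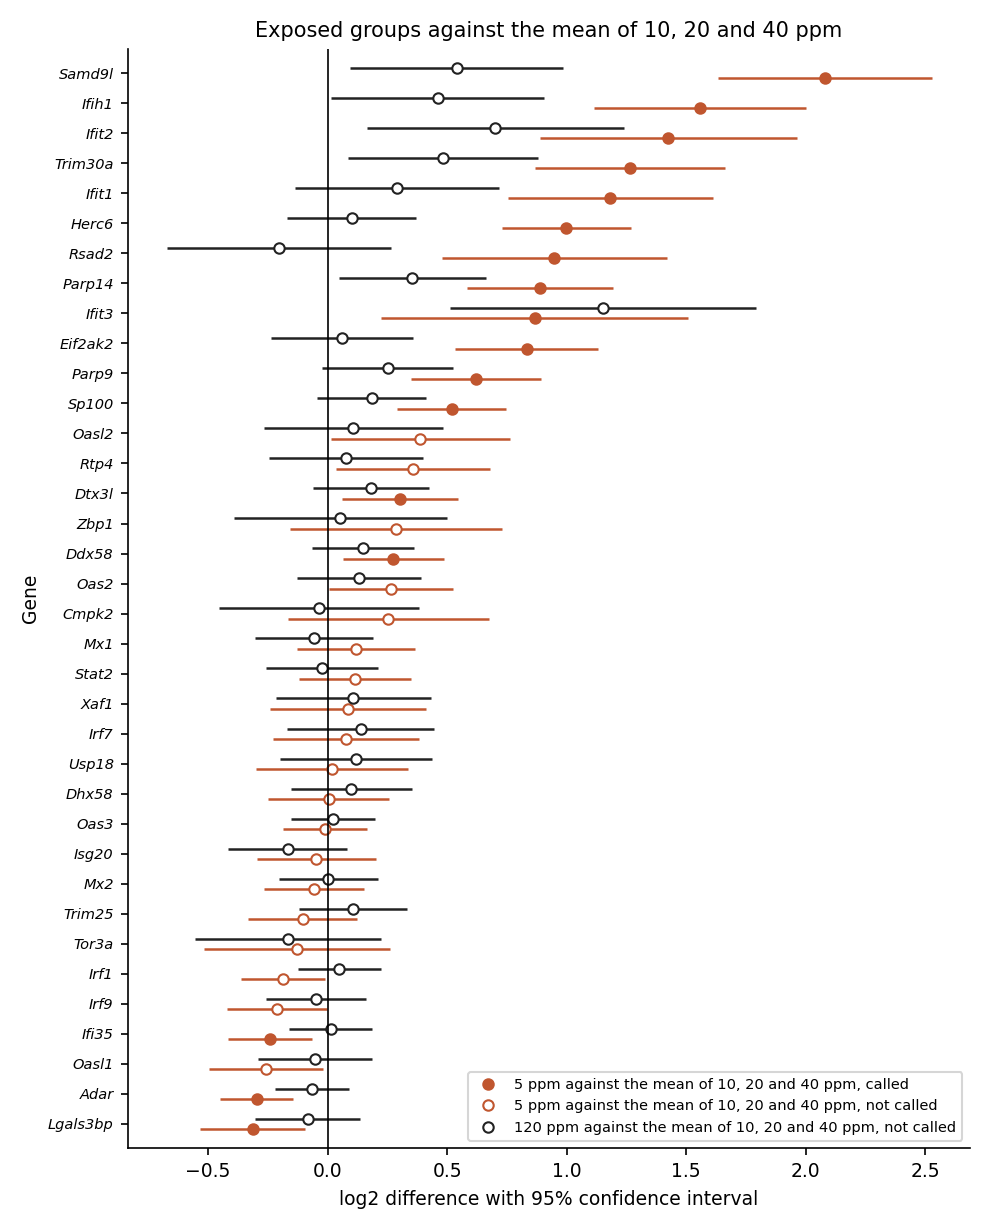
Log2 difference of the 5 ppm group (orange) and the 120 ppm group (black) from the mean of the 10, 20 and 40 ppm groups with its 95% confidence interval, with filled points for members called at an adjusted p under 0.05. Samd9l, Ifih1 and Ifit2 are farthest to the right at 5 ppm, and no member is called at 120 ppm.

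At 120 ppm, no member was called against the mean of 10, 20 and 40 ppm, where 0.0936% of all genes were called. Of the members, 6 had an unadjusted p under 0.05, against 10.7% of all genes. The median difference was 0.10 for the members and -0.02 for all genes. The largest was that of Ifit3, at 1.15 ± 0.32 (SE; limma adjusted p = 0.145). Its 120 ppm mice read 8.50 to 9.46 and its 15 mice at 10, 20 and 40 ppm 6.05 to 8.83, so the groups overlapped. Ifit2 differed by 0.70 ± 0.26 (limma adjusted p = 0.338), with 120 ppm mice at 6.29 to 7.20 and the others at 4.56 to 6.64. The lowest were Rsad2 at -0.20 ± 0.23 (95% confidence interval -0.67 to 0.27) and Isg20 at -0.17 ± 0.12 (-0.42 to 0.08). The 15 mice at 10, 20 and 40 ppm read 5.70 to 7.41 for Rsad2 and 9.17 to 10.01 for Isg20, and the 120 ppm mice overlapped both ranges.

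No ordered rise with concentration was called above 5 ppm. Over 10 to 120 ppm, no member had a called slope on log2(ppm), where 0% of all genes had one and 4 members had an unadjusted p under 0.05, against 7.86% of all genes. Between 120 and 40 ppm no member was called (0.0175% of all genes), and 3 had an unadjusted p under 0.05, against 9.5% of all genes. Over all 7 groups, 16 members had a called rising and 9 a called falling slope on log2(ppm + 1). Of all genes, 30.9% had a called rising and 41.8% a called falling slope (72.6% in all). No slope of a member was called over linear ppm. The share of all genes called over linear ppm was not taken, so this cannot be read as particular to the members. Against 1 ppm in place of air, 21 members were higher and 11 lower at 5 ppm, when 79.6% of all genes were called (31.1% higher and 48.5% lower).

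Mice of a group differed in their overall level of these genes. At 5 ppm, mouse 5 was the highest of its group for 23 of the 36 members, where it was the highest for 22.9% of all genes, and it was the lowest for none. At 40 ppm, mouse 1 was the lowest of its group for 22 members (24.3% of all genes) and mouse 4 the highest for 21 (18.1%). In air, mouse 1 was the lowest for 17 (27.5%) and mouse 5 the highest for 16 (23.4%). Mouse 1 was also the lowest for 17 members at 5 ppm (21.4%) and 16 at 120 ppm (27.8%). At 1, 10 and 20 ppm it was the lowest for 9 each (23.2%, 15.8% and 16.5%). The largest SD within a group was that of Ifit3 at 20 ppm, 1.06, where mouse 3 read 6.05 and the other mice 8.10 to 8.83. The smallest mean SD over the 7 groups was that of Adar, 0.13.

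The 36 members were read by 54 probe sets, and 13 members had more than 1. At 120 ppm, 25 of the 54 probe sets were higher and 13 lower, when 29.8% of all genes, read by 1 probe set each, were higher and 39.1% lower. Shares over all probe sets, or over all genes with several, were not taken. The counts here therefore only compare the probe sets of a member with each other. Both probe sets of Parp14, Sp100 and Trim30a were called higher and all 3 of Dhx58 lower at 5 and 120 ppm. These were the 4 of the 13 whose probe sets were all called the same way at 120 ppm. Ddx58 and Cmpk2 were not among them, so each had at least 1 probe set not called there. At 5 ppm, 6 members were called the same way by all their probe sets, and 2 were called both ways. The probe sets of 1 member, Adar, were called both ways at 120 ppm: the brighter pair changed by -0.53 and -0.33 and the dimmest by 0.28. Of the 3 probe sets of Tor3a, 1 was called lower (-0.96), while the brightest read 0.19 and the dimmest -0.07. Of the 3 of Rsad2, the values were 0.65, 0.76 and 0.38, and the last was not called. The second probe set of Rtp4 read -0.19 and that of Stat2 0.36, neither of them called. The second probe set of Xaf1 read -0.65, not called, so the mean of both was 0.02 at 120 ppm and Xaf1 was no longer called.

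Genes upstream of these members were mixed at 120 ppm, where 29.8% of all genes were higher than in air and 39.1% lower. Of 21 listed interferon ligands 11 were measured, and at 120 ppm none was higher and 5 were lower, with a median change of -0.19 against -0.15 for all genes. Ifnb1, the first type I interferon made after infection, had means of 3.12 ± 0.24 (SD, n = 5) in air and 2.91 ± 0.11 at 120 ppm, a change of -0.21 ± 0.09 (SE; limma adjusted p = 0.0487). Ifng, which encodes interferon gamma, read -0.18 ± 0.12 against air (adjusted p = 0.168) and was not called. The ligands had mean log2 levels of 3.08 to 3.58 in all mice, which is low on the array. Oas3, with a mean of 3.38, was brighter than 15.9% of all genes. Such levels limit what small differences can show, that of Ifnb1 among them. The ligands lowest in adjusted p were Ifna7 (-0.46), Ifna6 (-0.46) and Ifna11 (-0.36).

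The receptors and kinases split, with 4 of 9 higher and 3 lower at 120 ppm and a median change of 0.09, against -0.15 for all genes. Their mean log2 level was 7.46 to 7.94 in air and 8.004 to 8.11 at 120 ppm, without overlap. Jak1, the kinase shared by these receptors, changed by 2.24 ± 0.18 (SE, n = 5 per group; limma adjusted p = 1.07e-12), from 6.71 ± 0.43 (SD) in air to 8.95 ± 0.06. Ifnar2 changed by 0.71 ± 0.09 and Jak2 by 1.16 ± 0.20, while Ifnar1, the other chain of the type I receptor, read 0.02 ± 0.13 and was not called. Tyk2 changed by -0.87, Ifngr2 by -1.02 and Ifnlr1 by -0.32. Of 7 measured signal transducers and interferon regulatory factors, 1 was higher and 5 were lower. Irf4 changed by 0.74, Irf3 by -0.97, Irf8 by -1.26 and Irf5 by -0.94. Of 12 measured sensing adaptors and kinases, 3 were higher (Tbk1 1.47, Tlr3 0.96, Tlr8 0.26) and 6 lower, led by Myd88 (-1.20), Unc93b1 (-1.24) and Ticam1 (-1.20).

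Of 14 negative regulators 7 were higher and 6 lower, led by Pias1 (1.69), Ptpn11 (0.64) and Cyld (0.82) and by Irf2bp1 (-1.58), Nlrx1 (-1.81) and Otud5 (-0.71). Of 47 further interferon-stimulated genes measured outside the 36 members, 12 were higher and 15 lower at 120 ppm, with a median change of -0.01. Trim21 (1.44), Zc3hav1 (1.86) and Samhd1 (1.47) led the rises, and Ifitm2 (-0.89), Parp10 (-1.29) and Daxx (-1.04) the falls. At 5 ppm, 20 of the 47 were higher and 15 lower (29.6% and 47.4% of all genes), with a median of 0.14 against -0.23 for all genes. These lists had other counts of genes higher than the 19 of 36 members, and the difference between lists was not tested.

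Some markers of the cell types of the lung were called as well. The lists are short, and at 120 ppm 29.8% of all genes were higher and 39.1% lower than in air (29.6% and 47.4% at 5 ppm). Of 9 measured lung epithelium markers, 2 were higher and 2 lower at 120 ppm, and 3 were higher and 2 lower at 5 ppm. Of 7 measured alveolar macrophage markers, 4 were higher (Plet1, Chil3, Mrc1 and Fabp1) and 1 lower (Car4) at 120 ppm. Their mean log2 level was 7.90 to 8.86 in air mice and 9.08 to 9.59 at 120 ppm, and 8.92 to 9.35 at 5 ppm. Of 5 markers of plasmacytoid dendritic cells, a main source of type I interferon, 3 were lower and 1 (Ccr9) higher, with a mean level of 5.64 to 6.26 in air and 4.93 to 5.99 at 120 ppm. At 5 ppm 4 of the 5 were lower, and the mean level was below every air mouse at 5 ppm (4.99 to 5.31), 10 ppm (4.67 to 5.36), 20 ppm (5.14 to 5.27) and 40 ppm (4.96 to 5.49). Of 9 markers of monocytes and interstitial macrophages, 3 were higher and 4 lower, and of 6 neutrophil markers 1 was lower. The mean neutrophil level was 6.54 to 7.41 in air, 5.70 to 7.89 at 5 ppm and 6.12 to 7.79 at 120 ppm. At 120 ppm, 3 of 6 T cell markers were higher and 1 lower, and 2 of 6 NK cell markers were higher and 2 lower. Of 5 B cell markers 1 was higher and 1 lower, and of 5 striated muscle markers 2 were lower. Of 7 platelet and red blood cell markers 6 were lower, with a mean level of 9.11 to 9.34 in air and 7.102 to 8.003 at 120 ppm. Of 6 endothelial markers, 4 were lower at 5 ppm than in the mean of 10, 20 and 40 ppm, when 28.8% of all genes were lower. Their mean level was 9.73 to 10.031 in the 5 ppm mice, below all 15 mice at 10, 20 and 40 ppm (10.035 to 10.38), and 10.00 to 10.42 in air. The part of these cell types in the changes of the members was not tested.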

How the data were processed

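Per the submitters' processing notes, the authors deposited log2 probe set values made with RMA, and Partek is named too, both without a version. Precision is limited by the number of arrays, 5 per group. Of 45037 probe sets, 28898 had exactly 1 gene symbol in the platform annotation, and each gene was represented by its brightest, giving 17097 genes. The members and lists were chosen with earlier results of these data known. All genes were fitted at once with limma 3.58.1 (R 4.3.3), with 1 mean per group over the 35 arrays, and p-values were adjusted by Benjamini-Hochberg over all genes in a comparison. The p-values are two-sided and come from moderated t-tests, which judge a difference or slope against the spread between mice. They take no account of an array-wide difference between groups. Tested on simulated data for 120 ppm against air over 17097 genes, the fit recovered 92% of changes of 1 and 99% of changes of 2 on the log2 scale. It also called 12 unchanged genes. The simulation changed 200 genes and held no array-wide difference, so these rates do not carry over to the calls made here. All measured members could be named. Values in each mouse were due for the 4 largest and 3 lowest changes at 120 ppm, the 2 largest and 2 lowest between exposed groups, the 2 smallest p at 1 ppm, and Irf7, Stat2 and Irf9, with Ddx58, Oasl1 and Oasl2 added after their values were seen. Genes of the pathway lists were named up to 3 per list and direction by smallest adjusted p. Same-numbered mice of different groups correlated by -0.01 to 0.13 on average after removal of group means, and mice of different numbers by -0.01. Number 1 averaged 0.13, with 15 of 21 pairs above 0.1 (113 of 420 for different numbers), and number 5 averaged 0.11. The numbers were not treated as pairs in the main fit. Alternatives were quantile normalization, median centring, averaging the probe sets of a gene, removal of dim genes, fits without the other groups, array weights, a trended and robust prior, a stricter threshold, linear ppm, the mouse number as a block, array covariates and leaving out each mouse.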

Additional observations from a re-analysis of the deposited data

Results flagged for a closer look

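In 10 of the 252 groups of 5 mice, 1 mouse stood far from the other 4 by Dixon's test (gap over range above 0.71). Chance picks out about 1 group in 20, which is more than was found here. No explanation was tested.

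At 1 ppm, Ddx58 was low in mouse 1 (5.63, next 6.06), Ifit3 in mouse 2 (4.65, next 5.82) and Trim25 in mouse 3 (7.91, next 8.48). In air, Parp9 was high in mouse 5 (6.70, next 6.03). At 10 ppm, Oas2 was high in mouse 5 (4.42, next 4.11) and Parp14 in mouse 2 (7.80, next 7.37). At 20 ppm, Dhx58 was high in mouse 5 (5.54, next 5.31) and Ifit3 low in mouse 3 (6.05, next 8.10). At 40 ppm, Samd9l was high in mouse 4 (7.48, next 6.71) and Xaf1 low in mouse 1 (7.46, next 8.41).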

How the results depend on the processing

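No member was called at 1 ppm under any alternative run. Centring arrays on their medians moved every difference from air by -0.10 at 5 ppm and -0.07 at 120 ppm on the log2 scale. With the mouse number as a block, 19 members were higher and 9 lower at 120 ppm, and 20 and 10 at 5 ppm. Of all genes, 30% were higher and 39.4% lower at 120 ppm with the block, and 29.7% and 47.6% at 5 ppm. The block added 1 call at 40 ppm (18 higher, and 28.8% of all genes). It added Oasl2 and Rtp4 to 5 ppm against 10 to 40 ppm (16 higher, and 13.8% of all genes). The block changed no other count against air. Leaving out dim genes removed 11 of the 36 members, so fewer were tested. Lower calls then came to 6, 5, 4, 5 and 5 at 5, 10, 20, 40 and 120 ppm against air. They came to 6 at 5 against 1 ppm and to 5 for the trend over all groups. The share of the kept genes called lower was not taken. With the interquartile range as a covariate, members higher and lower numbered 10 and 3 at 5 ppm, 5 and 3 at 10 ppm, 5 and 3 at 20 ppm, 6 and 4 at 40 ppm, 7 and 2 at 120 ppm, 1 and 0 at 5 against 1 ppm, and 1 and 1 for the trend. The shares of all genes higher and lower were 13.6% and 20.6%, 12.4% and 16.4%, 13.5% and 14.7%, 12.8% and 15.5%, 13% and 16.5%, 5.57% and 11.5%, and 5.77% and 1.17% in that order. With the array axis they were 1 and 0 at 5 ppm, 3 and 4 at 10 ppm, 5 and 4 at 40 ppm, 4 and 2 at 120 ppm, 3 and 0 at 5 against 1 ppm, and 6 and 4 for the trend, and 4 were higher at 20 ppm. All genes came to 6.57% and 9.67% at 5 ppm, 12.5% and 11.4% at 10 ppm, 16.7% and 13.7% at 20 ppm, 16% and 14.2% at 40 ppm, 12.6% and 11.7% at 120 ppm, 9.39% and 9.53% at 5 against 1 ppm, and 18.9% and 9.38% for the trend. Over linear ppm, 0 members rose and 0 fell, and the share of all genes was not taken. In 5 ppm against 10 to 40 ppm, lower calls were 5 after median centring, 5 with array weights and 1 at an adjusted p under 0.01. Shares of all genes were not taken for centring, weights or that threshold. With the interquartile range 11 members were higher and 1 was lower (10.5% and 23.8% of all genes), and the axis left 2 higher and 0 lower (2.08% and 2.89% of all genes). The cause was not tested.

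Leaving out 1 mouse gave 20 to 21 higher and 9 to 11 lower members at 5 ppm, 15 to 19 and 9 to 10 at 10 ppm, 16 to 18 and 6 to 9 at 20 ppm, 16 to 18 and 8 to 9 at 40 ppm, and 18 to 20 and 8 to 9 at 120 ppm. It gave 11 to 16 and 2 to 5 for 5 against 10 to 40 ppm, 20 to 22 and 10 to 11 for 5 against 1 ppm, and 15 to 16 and 9 to 10 for the trend. Shares of all genes were not taken in the fits without 1 mouse.

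Some values changed sign. At 5 ppm against air these were Stat2 (-0.34, quantile normalization), Tor3a (-0.35, mean of probe sets) and Cmpk2 (-0.0024, interquartile range). With the axis they were Ifih1 (-0.67), Irf1 (0.070), Irf7 (0.12), Ifit2 (-0.53), Ifit3 (-0.068), Oas3 (0.25), Trim25 (-0.14), Eif2ak2 (-0.16), Samd9l (-0.073) and Lgals3bp (0.0090). At 120 ppm they were Ifih1 (-0.44), Cmpk2 (-0.073) and Samd9l (-0.38) with the interquartile range, and Ifih1 (-1.10), Ifit2 (-0.44), Oas3 (0.14) and Samd9l (-0.95) with the axis. In 5 against 10 to 40 ppm they were Dhx58 (-0.19, mean of probe sets) and, with the axis, Ddx58 (-0.048), Ifit3 (-0.020), Dtx3l (-0.14) and Lgals3bp (0.038). The cause was not tested. Dim members such as Oas3 lie low on the array, which limits what small differences there can show.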
